A study of Mus musculus with 6 samples.

Results

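The genes described here are 33 genes known to rise in sensory neurons after their axons are damaged. They were listed by name, matched to the deposited tables by NCBI mouse gene identifier, and make up 33 of the 36528 genes listed there. All 33 were found, and 29 passed the filter on low counts. The neuropeptide genes Npy, Vip and Crh and the secreted lectin gene Reg3b did not pass. The 6 libraries are from lumbar dorsal root ganglia, the clusters that hold the cell bodies of sensory neurons, of female mice 12 to 18 weeks old. Every mouse carried the genotype Scn9a loxP/loxP, in which both copies of the gene of the sodium channel Nav1.7 are flanked by recombination sites. The knockout group (n = 3) was also pCAAG.Cre.ER Pos, and the littermate controls (n = 3) were pCAAG.Cre.ER Neg. CreER is a Cre recombinase that tamoxifen activates, and the series title calls the knockout global. The sources used here do not state the tamoxifen schedule or whether controls received the drug. Each library holds the pooled 6 ganglia of 1 mouse.

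Damage to a peripheral axon starts a programme of gene expression in the cell body of the neuron. Kinase and cytokine signals from the lesion activate transcription factors such as ATF3, JUN, STAT3 and SOX11. These raise genes for growth cone and cytoskeleton proteins, neuropeptides and secreted factors, while many genes of ion channels and transmitters of the mature neuron fall. Several of the genes, Jun and Gap43 among them, are also expressed by Schwann cells after injury, and bulk libraries do not separate the cells. In such libraries, fewer cells of a type and less RNA per cell cannot be told apart.

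Total counts ranged from 40237131 to 63332040 per library. Scn9a had 557 to 635 CPM (a gene's share of the counts of its library, scaled with TMM factors) in controls and 565 to 620 CPM in CreER-positive mice. Reads outside the deleted part are counted, so this does not check the labels. The summed CPM of 10 sensory neuron markers was 6087 to 6463.5 in controls and 5763.5 to 6705 in CreER-positive mice, so these markers were present in every library. Some libraries stood apart in markers of other cells. The 7 skeletal muscle markers summed to 62.3 CPM in control replicate 2 and to at most 9.02 CPM elsewhere. In CreER-positive replicate 3, macrophage markers summed to 159 CPM against at most 106 CPM elsewhere, and fibroblast markers to 1583 CPM against at most 1170.4 CPM. In CreER-positive replicate 2, oligodendrocyte markers summed to 13.2 CPM, of which Mobp gave 12.1 CPM, against at most 3.42 CPM elsewhere. The libraries of CreER-positive mice differed more from each other (chi-square per degree of freedom 35.4 to 43.9 between pairs) than those of controls did (6.01 to 9.02).

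Most injury genes had slightly more RNA in CreER-positive ganglia, and few passed the test. Of the 29 tested, 27 had a positive log2 fold change, against 50.8% of all tested genes. The list was chosen with earlier results of these data known. In edgeR, 27 of 29 were positive with DESeq2 size factors and 25 with upper-quartile factors or total counts alone. Without CreER-positive replicate 2 or replicate 3, 24 of 30 tested were positive, and 27 of 30 without replicate 1. The median log2 fold change of the 29 was 0.21, and that of all 22043 tested genes was 0.00. Some marker lists of other cells had positive medians too, 0.21 for macrophages (7 of 8 positive), 0.25 for fibroblasts (5 of 6) and 0.17 for satellite glia (5 of 6). Medians were 0.11 for Schwann cells (7 of 8), 0.14 for endothelium (5 of 5) and 0.20 for mural cells (4 of 5). They were 0.36 for oligodendrocytes (2 of 3) and 0.21 for keratinocytes (1 of 2). The summed CPM of the mural cell markers was lower all the same, 170 to 172 in CreER-positive mice against 189 to 208 in controls. By edgeR and by DESeq2, 1 of these 5 markers was called lower, against 0.563% and 1.43% of all genes. Other lists had negative medians, -0.15 for neutrophils (0 of 4), -0.40 for adipocytes (0 of 4) and -0.03 for T cells (1 of 2). Skeletal muscle, high in control replicate 2, had -1.88 (0 of 6), and sensory neurons had -0.02 (4 of 10). The part of such cells in the difference was not tested. After Benjamini-Hochberg adjustment over all genes of the edgeR quasi-likelihood p-values, 1 rose, the cholecystokinin receptor gene Cckbr, and 1 fell, the urokinase receptor gene Plaur. Over all genes, 0.726% were called, 0.163% higher and 0.563% lower. At an unadjusted p under 0.05 there were 15 higher and 1 lower, against 5.05% and 5.52% of all genes (10.6% in either direction). For 13 injury genes every CreER-positive mouse lay above every control, and for 1 below, against 6.63% and 9.31% of all genes (15.9% in either direction). Cckbr and Sprr1a passed the count filter only through the CreER-positive group, where they are high. The other 27 had a median of 0.19, and 25 of them were positive. For 11 of these 27 every CreER-positive mouse lay above every control, and for 1 below. The 15 with an unadjusted p under 0.05 also include both Cckbr and Sprr1a.

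**Figure D1:**
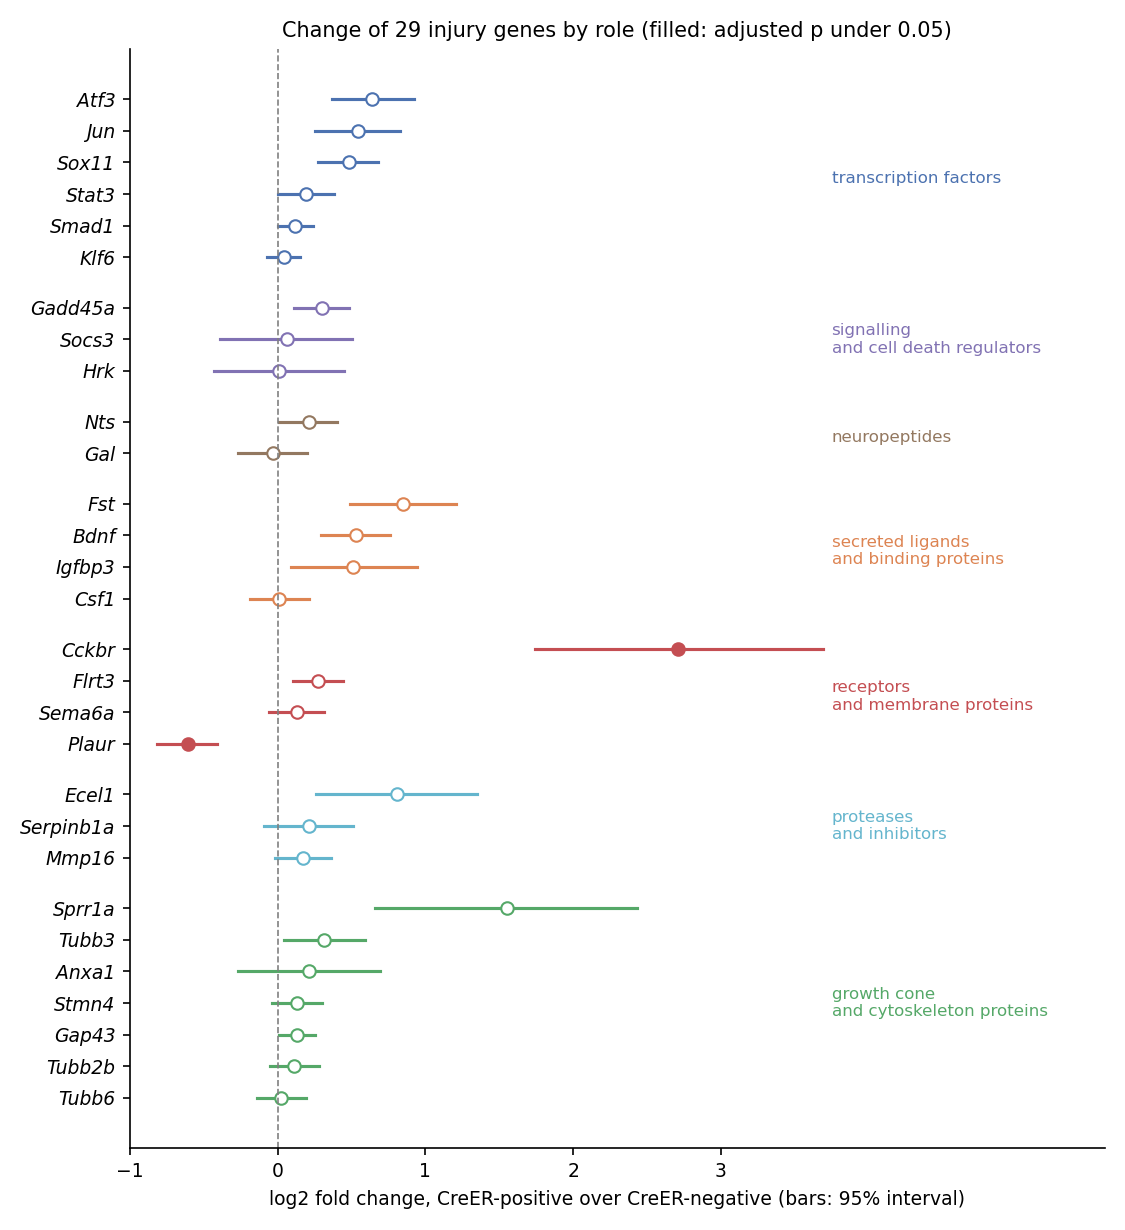
Log2 fold change of each of the 29 tested injury genes, CreER-positive over control, grouped by role, with the 95% interval as a bar and the median of all genes as a dashed line. The filled points are Cckbr at 2.71 and Plaur at -0.61, the calls at an adjusted p under 0.05, and the remaining points lie between -0.03 and 1.55.

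Of the 6 transcription factor genes, none passed over all genes by edgeR, and DESeq2 called 3 higher (0.857% of all genes). Before adjustment, 4 lay under 0.05 and were higher (5.05% of all genes). Atf3 (chromosome 1, 191170296 to 191183333 in GRCm38) encodes a bZIP factor that is nearly silent in intact sensory neurons and is the usual marker of an injured one. Its levels were 4.35, 5.62 and 4.98 CPM in control replicates 1 to 3 and 8.17, 8.40 and 6.88 CPM in CreER-positive replicates 1 to 3. All 3 CreER-positive mice lay above all 3 controls, and the log2 fold change was 0.64 ± 0.12 (SE), a 1.56-fold difference. The edgeR adjusted p was 0.0523, just above the threshold, and DESeq2 gave 4.84e-04.

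Jun, which encodes an AP-1 subunit that pairs with ATF3 in injured neurons, had 57.4, 80.4 and 72.9 CPM in controls and 89.7, 117 and 99.6 CPM in CreER-positive mice. The groups did not overlap, but control replicate 1 lay well below the other controls. The log2 fold change was 0.54 ± 0.13, with an adjusted p of 0.127 by edgeR and 9.29e-04 by DESeq2. Sox11, a SOX family factor of developing and regenerating neurons, had 15.8, 15.2 and 16.4 CPM in controls, a narrow range, and 19.1, 22.5 and 24.4 CPM in CreER-positive mice. Its log2 fold change was 0.48 ± 0.09, and its adjusted p was 0.0567 by edgeR and 5.53e-04 by DESeq2.

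The remaining factors differed less. Smad1, a transducer of bone morphogenetic protein signals, had 50.6, 53.7 and 54.5 CPM in controls and 59.1, 56.5 and 57.0 CPM in CreER-positive mice. Its groups did not overlap, at a log2 fold change of 0.12 and an adjusted p of 0.459. Stat3, the factor downstream of gp130 cytokines, had 250.5 to 257 CPM in controls and 301, 315 and 249.8 CPM in CreER-positive mice. Replicates 1 and 2 lay above the controls and replicate 3 just below them. Klf6, a zinc finger factor that promotes axon growth, had 75.4 to 78.3 CPM in controls and 77.4 to 81.1 CPM in CreER-positive mice, with a 95% interval of the log2 fold change from -0.07 to 0.15.

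Secreted factors included some of the larger estimates, and none passed over all genes by edgeR. Fst encodes follistatin, which binds and blocks activins. It had 2.16, 2.28 and 2.14 CPM in controls and 3.08, 4.56 and 4.25 CPM in CreER-positive mice. Every CreER-positive mouse exceeded every control, and the log2 fold change was 0.85 ± 0.16, with an adjusted p of 0.0539 by edgeR and 6.89e-04 by DESeq2. Bdnf, the ligand gene of the receptor TrkB, had 36.1, 28.1 and 33.1 CPM in controls and 40.8, 50.4 and 48.9 CPM in CreER-positive mice. The groups did not overlap. The log2 fold change was 0.53 ± 0.10, with an adjusted p of 0.0659 by edgeR and 1.43e-04 by DESeq2.

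Igfbp3, a binding protein of insulin-like growth factors, had 10.8, 8.68 and 10.2 CPM in controls and 9.55, 16.6 and 16.3 CPM in CreER-positive mice. CreER-positive replicate 1 lay inside the control range and the other two above it, at a log2 fold change of 0.51 (adjusted p 0.365). Csf1 encodes the colony-stimulating factor that injured neurons release to activate microglia and macrophages. It had 17.2, 15.4 and 17.8 CPM in controls and 15.1, 17.4 and 18.2 CPM in CreER-positive mice. The groups overlapped, and the 95% interval of its log2 fold change ran from -0.19 to 0.21. Reg3b, which is strongly induced by axotomy, had 1 to 3 counts in each of the 6 libraries.

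**Figure D2:**
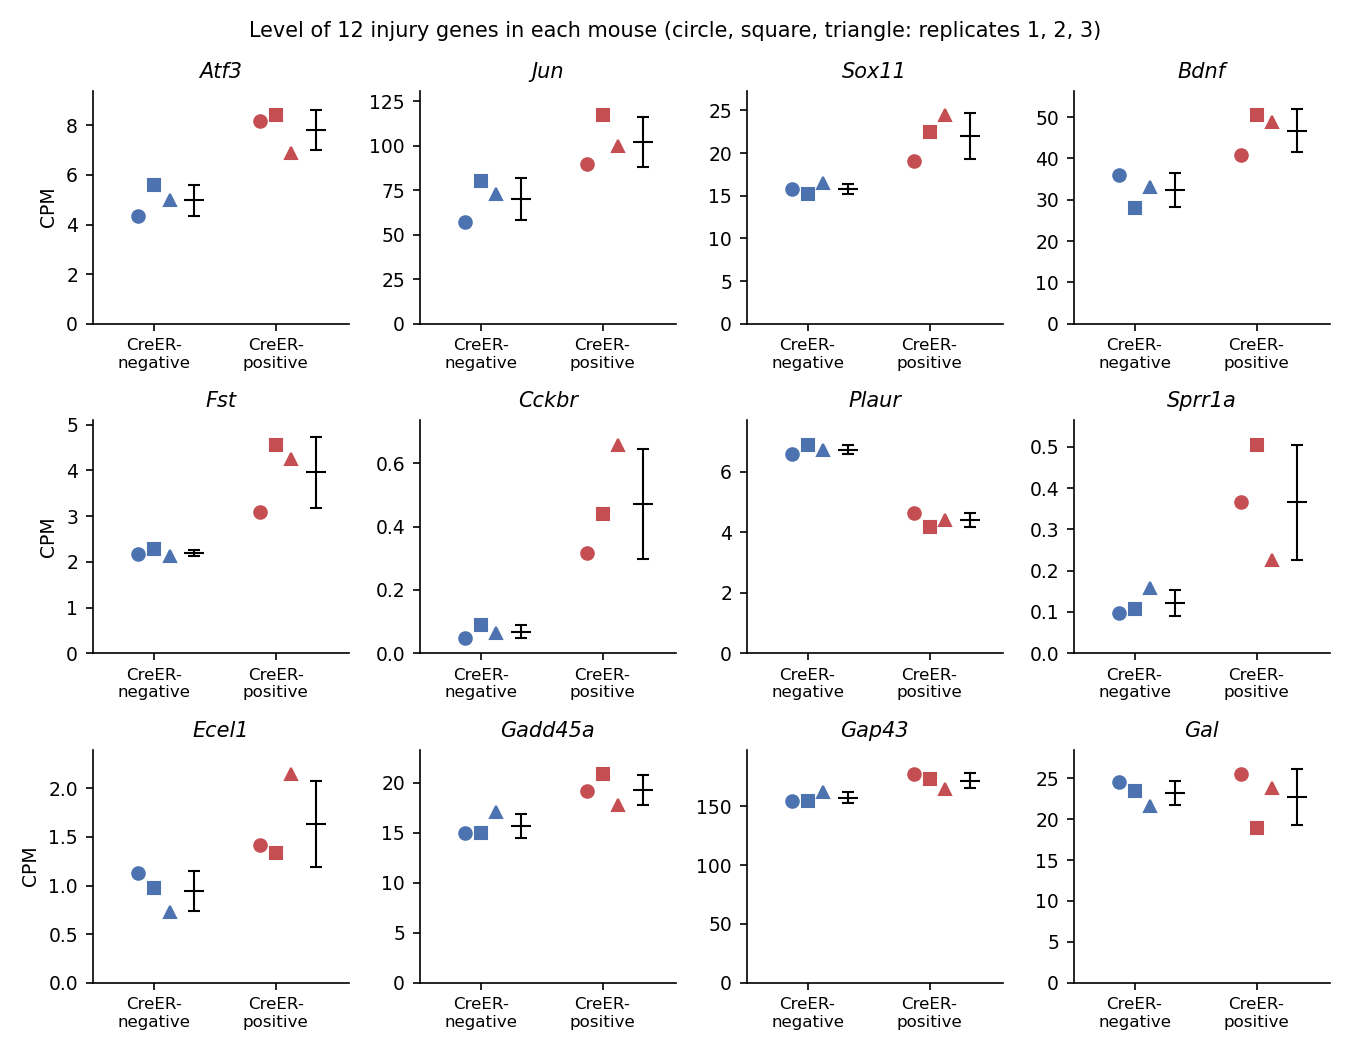
CPM of 12 injury genes in each mouse, controls in blue and CreER-positive mice in red, with the group mean and SD (n = 3) in black. Atf3, Jun, Sox11, Bdnf, Fst, Sprr1a, Ecel1, Gadd45a and Gap43 do not overlap between the groups and miss the threshold. Plaur lies at 4.17 to 4.62 CPM in CreER-positive mice against 6.57 to 6.88 CPM in controls, and Gal overlaps.

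The 2 calls were both receptor genes, and they went in opposite directions. Cckbr (NCBI gene 12426, chromosome 7, 105425676 to 105436339) encodes the receptor of cholecystokinin and gastrin, is low in intact ganglia and is known to rise after nerve section. It had 2, 5 and 4 counts in controls and 19, 27 and 35 counts in CreER-positive mice, or 0.0492, 0.0903 and 0.0633 CPM against 0.317, 0.439 and 0.658 CPM. The groups were far apart on low counts, with a log2 fold change of 2.71 ± 0.43 and an edgeR adjusted p of 0.0266. DESeq2 gave Cckbr no adjusted p. Cck, the gene of its ligand cholecystokinin, was also low, with at most 0.197 CPM in controls and 0.342 CPM in CreER-positive mice (adjusted p 0.558).

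Plaur (NCBI gene 18793, chromosome 7, 24460937 to 24475970) encodes the cell surface receptor of the protease urokinase. It had 6.57, 6.88 and 6.72 CPM in controls and 4.62, 4.17 and 4.40 CPM in CreER-positive mice. Its spread within each group was small, and all 3 CreER-positive mice lay below all controls. The log2 fold change was -0.61 ± 0.09, with an adjusted p of 0.0167 by edgeR and 1.74e-04 by DESeq2, so this injury gene fell. Plau, the gene of urokinase itself and not among the 33, had 9.32, 8.65 and 8.48 CPM in controls and 4.90, 5.65 and 6.78 CPM in CreER-positive mice. Receptor and protease genes thus had nearly equal estimates, but Plau missed the threshold by edgeR (-0.61 ± 0.12, adjusted p 0.0643) and passed by DESeq2 (7.19e-04). Plat, which encodes the related tissue plasminogen activator, had 12.9 to 13.5 CPM in controls and 14.5 to 15.5 CPM in CreER-positive mice (0.20, adjusted p 0.302).

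The other membrane protein genes did not pass. Flrt3, a transmembrane adhesion protein gene, had 26.2, 24.8 and 25.5 CPM in controls and 27.6, 31.1 and 33.6 CPM in CreER-positive mice. Its groups did not overlap (0.27 ± 0.08, adjusted p 0.211). Flrt3 lies inside the gene Macrod2, which had 114 to 118 CPM in controls and 122 to 130 CPM in CreER-positive mice, and without a known strand setting reads shared by both cannot be assigned. Sema6a, a transmembrane semaphorin gene, had 14.3 to 15.0 CPM in controls and 14.5 to 17.7 CPM in CreER-positive mice.

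Promoter sequence from RefSeq (GRCm38.p6) was read for the 24 injury genes with an entry in the table used, as the 250 bases before each annotated start. It was searched on both strands for AP-1 (TGANTCA), CRE (TGACGTCA) and STAT (TTCNNNGAA) motifs, which the factors JUN, ATF3 and STAT3 are known to bind in their families. All 3 motifs read the same on either strand, and they cannot match the same bases in full. AP-1 letters were found before a start of 4 genes, Bdnf, Nts, Plaur and Sprr1a, in 4 of 30 windows, against 6.75% of all 32851 windows. STAT letters were found for Bdnf, Reg3b and Socs3, in 3 of 30 windows against 7.02%, and CRE letters in 0 of 30 against 1.55%. The sequences below are those of the 2 called genes, of Atf3, whose p was the next smallest, and of Sprr1a, chosen after the search because it holds 2 matches. Capitals mark AP-1 letters, and each line runs 5′ to 3′ and ends 1 base before the start.
Cckbr, chr7:105425481-105425730, strand +: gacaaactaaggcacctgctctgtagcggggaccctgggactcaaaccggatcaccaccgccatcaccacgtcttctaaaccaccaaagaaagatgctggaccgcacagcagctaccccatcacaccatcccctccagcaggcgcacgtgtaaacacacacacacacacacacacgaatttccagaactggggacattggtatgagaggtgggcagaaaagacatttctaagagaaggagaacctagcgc
Plaur, chr7:24462233-24462482, strand +: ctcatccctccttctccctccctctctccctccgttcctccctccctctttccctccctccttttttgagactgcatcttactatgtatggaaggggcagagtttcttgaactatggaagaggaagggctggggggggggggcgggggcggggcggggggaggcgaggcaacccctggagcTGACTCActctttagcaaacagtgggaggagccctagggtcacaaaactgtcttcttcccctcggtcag
Atf3, chr1:191183334-191183583, strand -: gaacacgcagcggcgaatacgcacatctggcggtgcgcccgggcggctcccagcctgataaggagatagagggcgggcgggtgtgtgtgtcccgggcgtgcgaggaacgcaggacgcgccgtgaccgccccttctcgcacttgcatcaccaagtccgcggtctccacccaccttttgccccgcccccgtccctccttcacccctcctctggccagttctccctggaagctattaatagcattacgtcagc
Sprr1a, chr3:92485882-92486131, strand -: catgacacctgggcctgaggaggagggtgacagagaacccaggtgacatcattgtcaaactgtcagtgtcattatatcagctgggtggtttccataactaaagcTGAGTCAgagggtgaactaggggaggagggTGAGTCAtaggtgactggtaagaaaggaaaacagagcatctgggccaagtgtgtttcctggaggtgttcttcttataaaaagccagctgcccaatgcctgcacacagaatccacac
In Plaur the match lies 69 to 63 bases before the start, and in Sprr1a the matches lie 146 to 140 and 116 to 110 bases before it. The annotated starts used for Cckbr and Plaur lie inside the gene spans given above. No match was found in these windows of Cckbr and Atf3. A gene with AP-1 letters fell (Plaur), and Cckbr, which rose, has none in its window. The part of these motifs in the differences was not tested.

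Of the 5 neuropeptide genes, 2 were tested and neither passed. Gal encodes galanin, one of the peptides most strongly raised by axotomy. It had 24.5, 23.5 and 21.7 CPM in controls and 25.5, 18.9 and 23.8 CPM in CreER-positive mice. The groups overlapped, with a 95% interval of the log2 fold change from -0.27 to 0.20. Nts, the neurotensin gene, had 19.8, 16.5 and 17.3 CPM in controls and 20.5, 22.2 and 19.0 CPM in CreER-positive mice, so CreER-positive replicate 3 lay inside the control range (0.21, adjusted p 0.441).

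The other peptide genes were near the limit of detection. Npy, the gene of neuropeptide Y, which large neurons express after nerve section, had 2, 0 and 3 counts in controls and 8, 19 and 4 counts in CreER-positive mice. Without the count filter its edgeR adjusted p was 0.357. Vip, the gene of vasoactive intestinal peptide, had 3, 11 and 5 counts in controls and 1, 2 and 6 counts in CreER-positive mice. Crh, the gene of corticotropin-releasing hormone, had 8 to 11 counts in each of the 6 libraries. These peptide genes had at most 0.309 CPM in any mouse, and Gal at least 18.9 CPM.

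The 7 growth cone and cytoskeleton genes all had positive estimates, and none passed over all genes by edgeR. Sprr1a, a small proline-rich protein gene that is almost silent in intact ganglia, had 4, 6 and 10 counts in controls and 22, 31 and 12 counts in CreER-positive mice. In CPM these were 0.0984, 0.108 and 0.158 against 0.367, 0.505 and 0.226, without overlap, and CreER-positive replicate 3 was close to the highest control. The log2 fold change was 1.55 ± 0.39 (adjusted p 0.164). Gap43, a growth cone membrane protein gene, had 154, 154 and 162 CPM in controls and 177, 173 and 164.5 CPM in CreER-positive mice. The groups did not overlap, at a log2 fold change of 0.13 ± 0.05 (adjusted p 0.450).

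Tubb3, the neuronal beta-tubulin gene, had 1399, 1320 and 1569 CPM in controls and 1813, 1987 and 1529 CPM in CreER-positive mice. Replicate 3 of the CreER-positive group again lay inside the control range (0.31 ± 0.12, adjusted p 0.402). The other beta-tubulin genes had log2 fold changes of 0.11 (Tubb2b) and 0.02 (Tubb6). Tubb2b has a near-identical copy, Tubb2a, and how the authors' counting split reads between them is not known. Stmn4, a stathmin that binds tubulin, had 15.5 to 15.8 CPM in controls and 15.6 to 18.6 CPM in CreER-positive mice. Anxa1, the annexin A1 gene, had 9.41 to 11.3 CPM in controls and 8.79, 9.86 and 16.9 CPM in CreER-positive mice, with only replicate 3 above the controls.

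Among regulators and proteases, no gene passed over all genes by edgeR. Gadd45a, a stress and DNA repair gene that axotomy raises early, had 15.0, 15.0 and 17.1 CPM in controls and 19.2, 20.8 and 17.8 CPM in CreER-positive mice. The groups did not overlap (0.30 ± 0.08, adjusted p 0.211). It overlaps E230016M11Rik, which had 24.4 to 30.0 CPM over all libraries, and reads cannot be assigned to either where they overlap. Ecel1, a membrane metalloprotease gene of injured neurons, had 1.13, 0.975 and 0.728 CPM in controls and 1.42, 1.33 and 2.14 CPM in CreER-positive mice. Each CreER-positive mouse exceeded each control, at a log2 fold change of 0.81 ± 0.24 (adjusted p 0.243).

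Mmp16, a membrane-bound matrix metalloprotease gene, had 7.90, 7.67 and 7.75 CPM in controls and 8.84, 8.04 and 9.36 CPM in CreER-positive mice, again without overlap (0.17, adjusted p 0.540). Serpinb1a, a serine protease inhibitor gene with close paralogs, had 85.4 to 122 CPM in controls and 106 to 131 CPM in CreER-positive mice. Socs3, the feedback inhibitor of STAT3 signalling, had 9.89 to 12.2 CPM in controls and 7.85 to 14.6 CPM in CreER-positive mice. Hrk, a gene of a death-promoting BCL2 family protein, had 1.30 to 2.06 CPM in controls and 1.43 to 1.81 CPM in CreER-positive mice. The groups of these 3 genes overlapped.

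The injury genes spanned a wide range of levels per length. On the scale of the deposited RPKM, in which the width of most genes includes introns, Tubb3 was highest with 130 to 191 RPKM over the 6 mice. Tubb2b followed with 48.8 to 57.0 RPKM, Jun with 18.5 to 36.8 RPKM, Serpinb1a with 9.67 to 14.9 RPKM and Klf6 with 8.61 to 9.13 RPKM, and neighbours in this order did not overlap. Gadd45a, next with 6.65 to 9.04 RPKM, overlapped Klf6. Atf3 ranked 21st of 33 at 0.343 to 0.646 RPKM, and overlapped its neighbours Csf1 and Fst. The 4 lowest genes were Cckbr, Npy, Reg3b and Vip, with at most 0.0631 RPKM in any mouse. On this scale the called rise concerned one of the lowest genes of the list, and the highest, Tubb3 and Tubb2b, did not pass. The order depends on the division by width. By CPM, Stat3 (mean 254 in controls and 289 in CreER-positive mice) lay above Tubb2b (163 and 176).

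**Figure D3:**
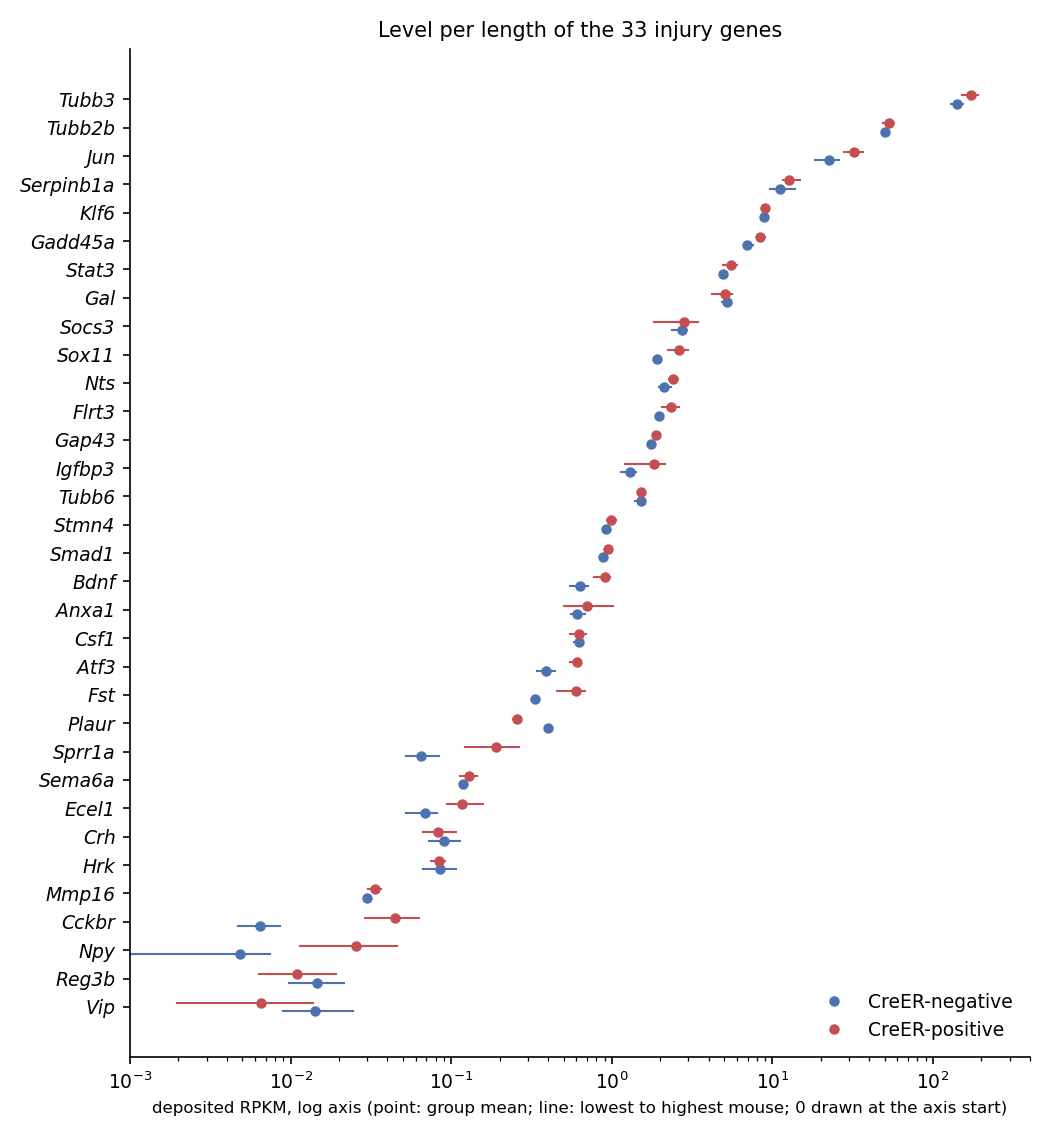
Deposited RPKM of the 33 injury genes on a log axis, with the mean of each group as a point and the range over its 3 mice as a line. Levels run from 156 RPKM for Tubb3 down to 0.0104 RPKM for Vip as means over all mice, and Plaur is the gene whose CreER-positive range lies below its control range.

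The CreER-positive mice differed among themselves. Measured against the mean of the controls on the log2 scale, the median of the 29 genes was 0.17, 0.29 and 0.21 in CreER-positive replicates 1, 2 and 3. It was -0.02, 0.00 and 0.00 in control replicates 1, 2 and 3. In CreER-positive replicates 1, 2 and 3, 23, 26 and 23 of the 29 lay above the control mean, and in the controls 12 to 16 did. Without Cckbr and Sprr1a, which passed the count filter only through the CreER-positive group, the 3 CreER-positive medians were 0.16, 0.22 and 0.18. In the same order, 21, 24 and 21 of the remaining 27 lay above the control mean, and in the controls 12 to 15 did. Replicate 2, the library with the most oligodendrocyte marker RNA, held the highest value of its group for 15 genes and replicate 3 for 9. Stat3, Tubb3, Sprr1a and Atf3 were lowest in replicate 3, while Sox11, Flrt3, Ecel1, Cckbr and Anxa1 were highest there. In that mouse sensory neuron markers summed to 5763.5 CPM, below the 6087 to 6705 CPM of the other 5, and satellite glia markers to 2416 CPM against at most 2022 CPM. The part of these marker differences in the injury genes was not tested.

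**Figure D4:**
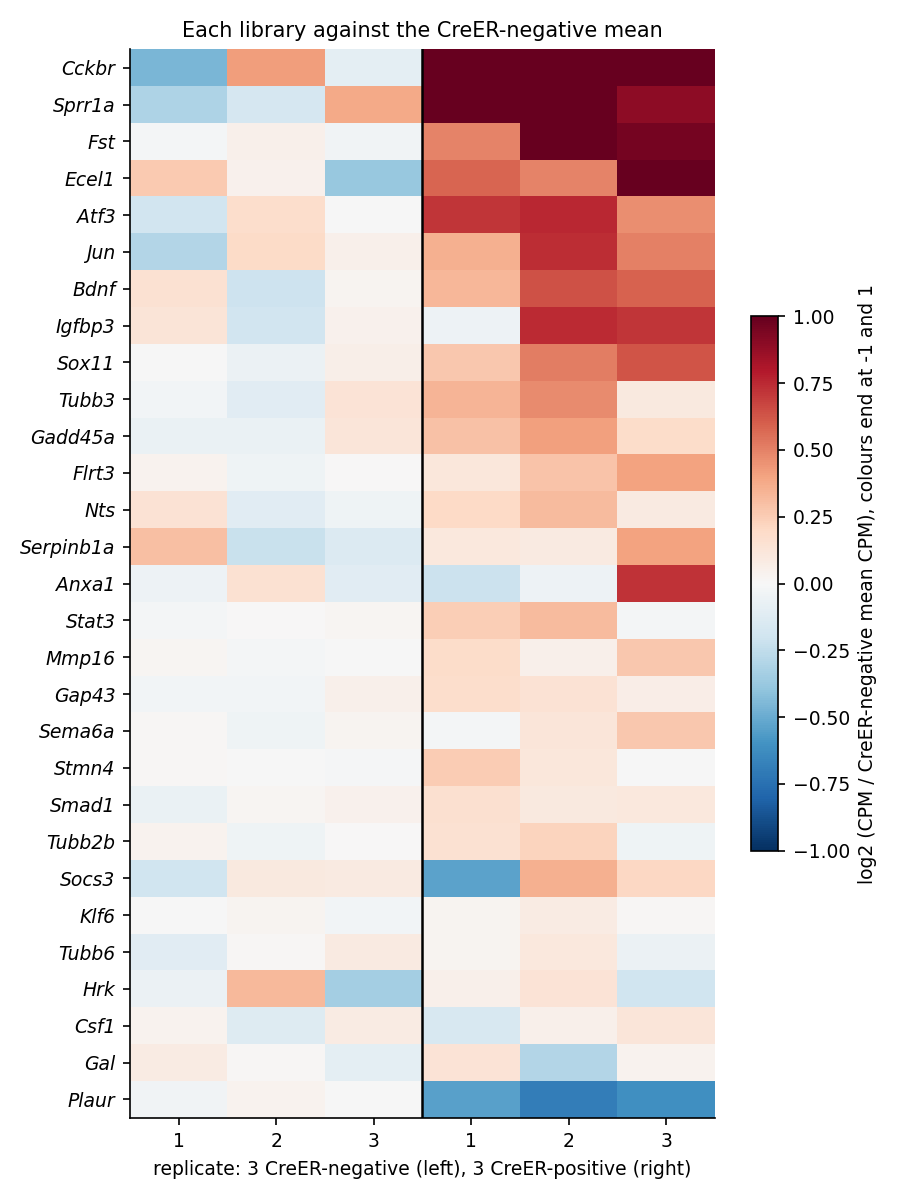
Log2 ratio of the CPM of each of the 29 tested injury genes in each mouse to the control mean, with red for higher and blue for lower and colours ending at -1 and 1. The right-hand columns are mostly red in all 3 CreER-positive mice, with medians of 0.17, 0.29 and 0.21, and Plaur is blue in each. Without Cckbr and Sprr1a the medians are 0.16, 0.22 and 0.18.

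Which injury genes passed depended on single mice. Without CreER-positive replicate 3, 7 injury genes were called higher, Atf3 (adjusted p 0.0154), Sox11 (0.0406), Stat3, Fst (0.0468), Cckbr (0.0227), Sprr1a and Tubb3, and Plaur was called lower (0.0165), while 1.48% and 1.05% of all genes were. Without CreER-positive replicate 1, 5 were called higher, Sox11 (0.0144), Bdnf (0.0326), Fst (0.0131), Igfbp3 (0.0154) and Cckbr (0.0150), against 0.144% of all genes, and Plaur was called lower (0.0346), against 0.482%. Leaving out any 1 control, or replicate 2 of the CreER-positive group, left no injury gene called in either direction, while 0.316%, 0.267%, 0.329% and 0.644% of all genes were called without control replicates 1, 2 and 3 and that mouse. The adjusted p was then 0.132, 0.111, 0.148 and 0.0552 for Cckbr, and 0.0732, 0.114, 0.0869 and 0.0557 for Plaur. The log2 fold change of Plaur stayed between -0.65 and -0.58 over all 16 alternatives, and that of Cckbr between 2.42 and 2.97 over the 14 that gave a p. With both control replicate 2 and replicate 3 of the CreER-positive group removed, Atf3 was the only call (0.82, adjusted p 0.0287), against 0.158% of all genes called higher. DESeq2 on all libraries called 5 higher, Atf3, Jun, Sox11, Bdnf and Fst, and Plaur lower, against 0.857% and 1.43% of the 18427 genes it gave an adjusted p (2.28% in either direction). With all libraries in edgeR, 3 were called higher with no count filter (0.132% of all genes), 4 with robust fitting (0.227%) and 0 with a filter of 1 CPM in 3 libraries (0.222%).

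Genes that act beside the 33 in the injury response were read from 7 further lists with 140 genes, of which 132 were tested. By edgeR 0 were called higher and 3 lower, against 0.163% and 0.563% of all genes. Before adjustment 14 and 9 lay under 0.05, against 5.05% and 5.52% of all genes. DESeq2 called 3 higher and 6 lower, against 0.857% and 1.43%, and limma-voom called 0 and 3, against 0.163% and 0.558%. Without CreER-positive replicate 3, edgeR called 8 higher and 5 lower, against 1.48% and 1.05% of all genes. The higher ones included Ngfr (adjusted p 0.00151), Tac1 (0.0311), Jund (0.0314), Sarm1 (0.0327) and Marcks (0.0367), and the lower ones were Mrgprd, Th, Kcnd3, Plau (0.00877) and Scn10a (0.0308). The median log2 fold change over the 132 was 0.04.

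Upstream signals had few differences. Of 12 genes of injury kinases and axon degeneration, none was called. Sarm1, the NAD-cleaving enzyme that executes axon degeneration, had 35.4 to 38.6 CPM in controls and 39.3 to 48.0 CPM in CreER-positive mice (0.26, adjusted p 0.243). Map3k12, the kinase DLK that starts the injury signal, had a log2 fold change of 0.13 (0.404). Of 13 tested genes of gp130 cytokines and receptors, none was called. Socs1 had the smallest p of that list (0.62, adjusted p 0.348), and Il6st, the gene of gp130 itself, had 0.23 (0.535).

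Of 14 tested further transcription factors, none was called by edgeR. Jund, an AP-1 subunit, had 69.4, 79.3 and 73.4 CPM in controls and 90.0, 96.1 and 82.7 CPM in CreER-positive mice, without overlap (0.27, adjusted p 0.174 by edgeR and 0.0429 by DESeq2). Of 22 growth cone and cytoskeleton genes none was called by edgeR, and their median was 0.09, with 20 positive. Marcks, an actin-binding protein gene, had 71.6 to 75.7 CPM in controls and 84.4, 92.3 and 117 CPM in CreER-positive mice (0.42, adjusted p 0.164 by edgeR and 0.00518 by DESeq2). Dcx, a microtubule-binding protein gene, had -0.23 (0.269).

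Of 35 tested partner receptors and ligands of the injury genes, edgeR called none and DESeq2 called 1 lower, Plau, against 1.43% of all genes. The galanin receptor gene Galr2 had 0.902 to 1.26 CPM in controls and 1.45 to 1.87 CPM in CreER-positive mice (0.57, adjusted p 0.285). Il34, the other ligand gene of the CSF1 receptor, had 0.19 (0.369). Ngfr, the neurotrophin receptor p75 of neurons and Schwann cells, was chosen after its values were seen. It had 396, 397 and 406 CPM in controls and 540, 559 and 395 CPM in CreER-positive mice. As for Stat3, replicates 1 and 2 lay above the controls and replicate 3 did not (0.32, adjusted p 0.369, and 0.00151 without replicate 3).

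Of 20 genes that fall in injured sensory neurons, 3 fell and none rose by edgeR, with a median of -0.03. The call rate for falls over all genes was 0.563%. DESeq2 called 5 lower and 1 higher, against 1.43% and 0.857% of all genes. The groups did not overlap for 7 genes that were lower and 3 that were higher, against 9.31% and 6.63% of all genes. Mrgprd, a receptor gene of non-peptidergic nociceptors, had 135, 139 and 144 CPM in controls and 64.2, 54.9 and 60.3 CPM in CreER-positive mice, less than any control by a wide margin (-1.22, adjusted p 2.49e-04). Th, tyrosine hydroxylase of C-fibre touch neurons, had -0.53 (0.0183), and Kcnd3, the potassium channel Kv4.3, had -0.44 (0.0392). The deposited width of Th is 38353 bases against an annotated span of 7217 bases, so its counts may include reads from outside the annotated gene. Mrgprd kept its call without any 1 library. Th lost it without control replicate 2 (0.121), control replicate 3 (0.116) or CreER-positive replicate 2 (0.0533), and Kcnd3 without control replicates 1 (0.219), 2 (0.216) or 3 (0.122) or CreER-positive replicate 2 (0.0991). The remaining genes without overlap missed the edgeR threshold and were named after their values were seen. Lower were Scn10a and Scn11a, the genes of the nociceptor sodium channels Nav1.8 and Nav1.9, at -0.31 (adjusted p 0.156 by edgeR and 2.24e-04 by DESeq2) and -0.23 (0.234 and 0.0127). Sst, the somatostatin gene, at -0.39 (0.335 and 0.139) and Gfra2, a receptor gene of the neurturin pathway, at -0.18 (0.523 and 0.564) were also lower. Higher were 3 genes of peptidergic nociceptors, Tac1 at 0.39 (0.0651 and 4.01e-05), Calca at 0.25 (0.431 and 0.0675) and Trpv1 at 0.15 (0.414 and 0.342). An earlier analysis of these libraries had already shown the falls of Mrgprd and Th, so they are not independent evidence about the list.

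Of 16 tested genes of the glial and immune response to nerve injury, none was called by edgeR or DESeq2, and before adjustment 0 lay under 0.05. Their median was 0.15. Gfap, an intermediate filament gene of satellite glia after nerve injury and of astrocytes of the central nervous system, had 1.72 CPM in each control and 1.73, 3.68 and 2.14 CPM in CreER-positive mice (0.55, adjusted p 0.504). The highest value was in CreER-positive replicate 2, the library with 13.2 CPM of oligodendrocyte markers, where Olig1 had 33 counts against 1 to 3 elsewhere. The part of these transcripts in the Gfap value was not tested. Ccl2, a chemokine gene that attracts monocytes, had at most 2.93 CPM in controls and 4.06 CPM in CreER-positive mice, and its groups overlapped.

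**Figure D5:**
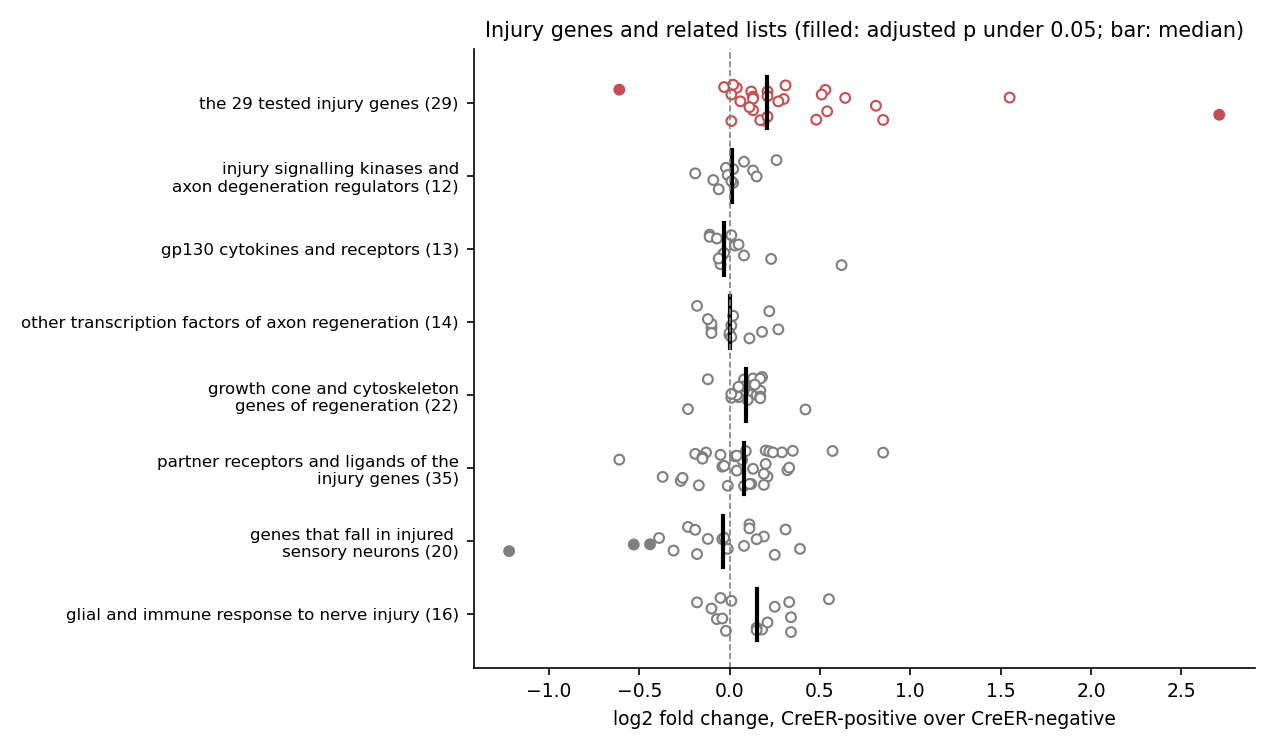
Log2 fold change of the 29 tested injury genes and of 7 related lists, each circle a gene, with filled circles for an adjusted p under 0.05, a black bar for each median and a dashed line for the median of all genes. The medians run from -0.03 to 0.21, and the filled circles among related genes are Mrgprd, Th and Kcnd3.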

How the data were processed

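RNA of 6 libraries, 3 per group by the genotype label, was analysed from the deposited table of each mouse. Per the submitters' processing notes, the authors aligned reads with GSNAP to GRCm38 (mm10). How reads were counted, with which annotation and strand setting, is not given in the sources used here. The authors' tables hold, per the file headers, an RPKM value and a count of reads for each NCBI gene, with its width. The width lies within 5% of the full gene span for 77.7% of genes, so counts may include introns. RPKM was used for levels only. Identifiers were matched to RefSeq GRCm38.p6 (31049 of 36528, and the rest held 1.91% of counts).

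Counts were filtered with filterByExpr defaults, which left 22043 genes, scaled with TMM factors and tested with edgeR 4.0.16 (glmQLFit with legacy off, R 4.3.3) at a Benjamini-Hochberg adjusted p of 0.05. An SE is the log2 fold change divided by the square root of F. Alternatives were other scalings and filters, DESeq2 1.42.0, limma-voom (limma 3.58.1), robust fitting, and leaving out libraries. The legacy setting was chosen after seeing the data. In simulated counts of 22043 genes, edgeR found 60% of genes with a fold of 1.5 and 82% with a fold of 2, and 15% of its calls were false. The simulation gave a gene the same dispersion in both groups and drew genes independently. The real CreER-positive libraries differed more from each other than the controls, so these shares may not hold for these data. No libraries of a group agreed within sampling noise. The labels call each library a biological replicate from 1 mouse. Figures were drawn with matplotlib 3.10.9.

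The 33 genes and the related and marker lists were chosen with earlier results of these data known, and no test was made over a list. Values in every library are given for injury genes that were called, had an unadjusted p under 0.05 or did not overlap between groups, and for Atf3, Jun, Sox11, Sprr1a, Gap43, Gal, Npy, Csf1, Gadd45a and Ecel1. In the related lists the called genes or otherwise 2 to 4 genes with the smallest p are named. Some further genes outside this rule, such as Il34 and Cck, are named beside them. The values of 1 related gene are not reported here. A search for genes with a pattern like that of Atf3 over the libraries was dropped, because the libraries fall into 2 groups.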

Additional observations from a re-analysis of the deposited data

How the results depend on the processing

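By edgeR, 1 injury gene was called higher and 1 lower, and 160 of all genes were called. Of injury genes called higher there were 3 with no count filter (Atf3, Fst and Cckbr), 0 with a filter of 1 CPM in 3 libraries, which removes Cckbr, 5 by DESeq2 and 4 with robust fitting. With 1 library left out, 0 to 7 were called higher and 0 to 1 lower, and 60 to 568 of all genes. DESeq2 called 421 of all genes. Without control replicate 2 and CreER-positive replicate 3 together, 0 were called lower. Of related genes, 0 were called higher and 3 lower. The higher calls became 1 with no count filter, 3 by DESeq2 and 2 without the pair of libraries. The lower calls became 6 by DESeq2. Without 1 library, 0 to 8 related genes were higher and 1 to 5 lower. Apart from the filter, the cause was not tested. The median of 0.21 and the count of 14 injury genes without overlap moved by less than the replicate spread or by less than 1.5 times. Signs turned for Hrk, Csf1, Socs3, Gal, Tubb6 and Anxa1, and for Ccl2 (-0.03 without the pair). Hrk and Csf1 were each 0.00, on the negative side, with upper-quartile factors and -0.01 with total counts, and Socs3 was 0.00 by limma-voom. Leaving out 1 library gave -0.15 to 0.22 for Hrk, -0.13 to 0.28 for Socs3, -0.12 to 0.09 for Gal, -0.05 to 0.09 for Csf1, -0.03 to 0.08 for Tubb6 and -0.13 to 0.39 for Anxa1. Without the pair, Csf1 was -0.11 and Anxa1 -0.05. No paired analysis was possible because the labels pair no animals and the replicate numbers only follow the order of the samples. At 40237131 to 63332040 counts per library, Npy, Vip, Crh and Reg3b had too few reads for a test, and 3 mice per group limit the precision of every estimate.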
